A study of Artemia franciscana with 14 samples.

Results

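The sexes of *Artemia franciscana* were compared at 1–2 days post-fertilization (dpf) in 6 single whole embryos, 3 females (replicates 3, 9 and 12) and 3 males (replicates 1, 2 and 3). These are 6 of the 14 RNA-seq libraries of the series, chosen by the stage and sex in their labels. By their labels, 1 female (replicate 3) and 1 male (replicate 1) are of 1 dpf and the remaining 4 embryos of 2 dpf. The remaining libraries are 3 females and 3 males of 4 dpf, 1 adult female and 1 adult male, and all animals are labelled wild-type. Sex was assigned by the authors from expressed variants on the Z chromosome and was not called again here. Each embryo is a separate biological replicate in the design text, but its mother is not given, so p-values measure the spread between these embryos. In whole embryos, fewer cells of a type and less RNA per cell cannot be told apart.

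*A. franciscana* is a brine shrimp whose females carry a Z and a W chromosome and whose males carry a pair of Z chromosomes. The Z chromosome has a differentiated region, Z(diff), where the W has diverged from it, and a pseudoautosomal region (PAR) shared by both chromosomes. In many animals the early embryo runs on RNA that the mother stored in the egg, and these transcripts are cleared as the embryo switches on its own genome. The male-specific lethal (MSL) complex, known from *Drosophila*, acetylates histone H4 at lysine 16 and balances the dose of sex-linked genes. The counts name genes by jg number without an annotation. Roles are therefore given only for genes that the study names, and no sequences are shown.

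The libraries held 3591905, 4597440 and 4327510 reads on genes in female replicates 3, 9 and 12, against 3723521, 4278698 and 4820308 reads in male replicates 1, 2 and 3. The totals overlapped between the sexes (two-sided exact permutation test, p = 0.8, where 3 against 3 allow no p under 0.1). The reads of female replicate 12 fell on 6414 genes, whereas 10842 and 10045 genes had a read in female replicates 3 and 9, against 10161, 10318 and 10757 in the males. With every library thinned to 3591905 reads, 6369 genes had a read in female replicate 12, and 9924 to 10842 in the other 5 embryos. The gap was thus as wide at equal depth. PCR copies were counted separately, so read numbers cover counting error only.

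The genes without reads in female replicate 12 were mostly of low and middle level. Levels are given as CPM, counts relative to the library total after scaling by TMM, a factor that evens out library composition. Among 3934 genes that averaged 1 to 10 CPM in the other 5 embryos, 31.4% had a read in female replicate 12, and 80.7% to 91.2% in each of the others. Among 4469 genes of 10 to 100 CPM the share was 77.1% in female replicate 12 and at least 98.6% in the others. At 100 to 1000 CPM, 99.4% of 1290 genes had a read in it, and above 1000 CPM all 159 genes did. Of 6041 genes with at least 10 reads in each of the other 5 embryos, 1099 (18.2%) had 0 reads in female replicate 12. The same share was at most 0.458% when any other embryo was set against its 5 companions. The sex label of female replicate 12 rests on expressed variants, and the bearing of its missing reads on that label was not tested.

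**Figure D1:**
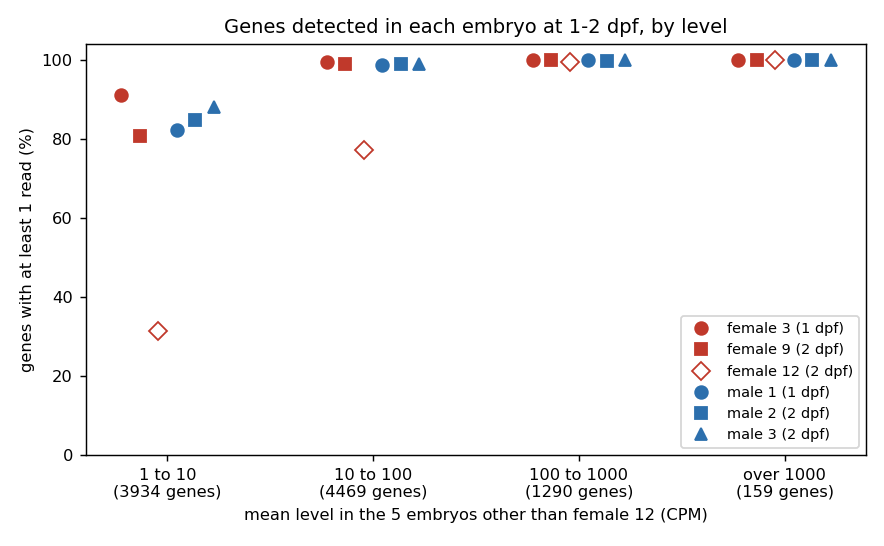
Percentage of genes with at least 1 read (vertical axis) by mean level in the 5 other embryos (horizontal axis, CPM classes), 1 marker per embryo in each class, females listed before males. Female replicate 12 lies at 31.4% in the class of 1 to 10 CPM and at 77.1% in the class of 10 to 100 CPM, below the other 5 embryos, and meets them above 100 CPM.

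No gene passed an adjusted p of 0.05 between females and males in the quasi-likelihood test of edgeR (0 of 8089 genes, 0%). The smallest adjusted p was 0.156. The same test called 12 genes without male replicate 1 and 2 genes without female replicate 3, and 0 when any other embryo was left out. At an unadjusted p under 0.05 this test held 490 genes (6.06%), with 273 higher in females (3.37%) and 217 lower (2.68%). DESeq2, with another model of the spread, called 67 of 9239 genes (0.725%), 23 higher in females (0.249%) and 44 lower (0.476%). Of these 67 genes, 20 of the 23 and 36 of the 44 had sexes that did not overlap in CPM, and 18 of the 44 had 0 reads in female replicate 12.

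Genes that separated the 6 embryos by sex were also counted, without a test. Every female was above every male in 528 of the 8089 genes (6.53%), and every female below every male in 831 (10.3%). Random order of 3 against 3 embryos would separate a share of 0.1 of genes, over both directions together. Of the 831 genes, 409 had no read in female replicate 12, as did 2242 of all genes tested, while the 528 must have reads in every female. With fewer embryos more genes separate, and leaving out female replicate 3 gave the highest numbers, 1352 above and 2365 below. The median log2 fold change over the genes tested, females over males, was -0.14 with female replicate 12 and -0.020 without it. The genes described next are the 8 in each direction with the smallest edgeR p among those whose sexes did not overlap.

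The gene that separated the sexes most clearly was jg11844, which was close to absent in males. It had 269, 259 and 254 reads in females, against 4, 6 and 8 reads in males. All 3 females were at a similar level, female replicate 12 included, and no male came near them. Its level averaged 66.7 ± 8.20 CPM in females and 1.41 ± 0.453 CPM in males (SD, n = 3 each). The log2 fold change was 5.55 (SE 0.62), and the adjusted p was 0.156 with edgeR and 3.30e-16 with DESeq2. Over the alternatives the log2 fold change of jg11844 stayed between 5.19 and 5.78.

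A higher level in females was also seen at larger read numbers. jg20557 had 14956, 24450 and 23525 reads in females, against 2448, 233 and 452 reads in males. The male of 1 dpf was the highest of the males and still below every female. The mean was 5333 ± 1372 CPM in females and 243 ± 283 CPM in males (SD, n = 3 each), a log2 fold change of 4.48 (SE 0.89). jg18976 had 499, 1640 and 1525 reads in females, against 183, 67 and 59 reads in males (log2 fold change 3.70, SE 0.65). In jg18976 the embryos of 1 dpf were the closest pair, with the lowest female and the highest male. jg9902, whose number places it in Z(diff), had 1431, 3971 and 2167 reads in females, against 240, 149 and 13 reads in males (log2 fold change 4.38, SE 0.98). In relative terms the males of this gene were thus further apart from each other than the females.

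At the lower end of expression, jg2841 had 53, 27 and 140 reads in females, against 1, 0 and 0 reads in males (log2 fold change 7.38, SE 1.55). jg3805 had 21, 31 and 47 reads in females and 0 reads in all 3 males, at least 11.2-fold higher in females against a floor of 3 reads per library. It was the 1 gene with 0 reads in every male and at least 10 in every female. The other 3 genes with the smallest p differed less. jg4239 had 391, 833 and 1103 reads in females, against 225, 139 and 92 in males (log2 fold change 2.46, SE 0.51). jg12082 averaged 182 ± 60.6 CPM in females and 50.4 ± 11.5 CPM in males, and jg12354 338 ± 71.3 CPM in females and 130 ± 19.9 CPM in males (SD, n = 3 each). Their log2 fold changes were 1.88 (SE 0.39) for jg12082 and 1.41 (SE 0.32) for jg12354. In both genes the SD within each sex was smaller than the difference between the means of the sexes.

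Of the 8 genes higher in females, 7 passed DESeq2 and 0 passed edgeR, where their adjusted p ran between 0.156 and 0.782. jg12354 had an adjusted p of 0.111 with DESeq2. All 118 values of these 8 genes under the alternatives kept the direction, with adjusted p between 3.30e-16 and 1.00. The genes were chosen for separate sexes in these same embryos, which leaves little room for a change of direction.

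**Figure D2:**
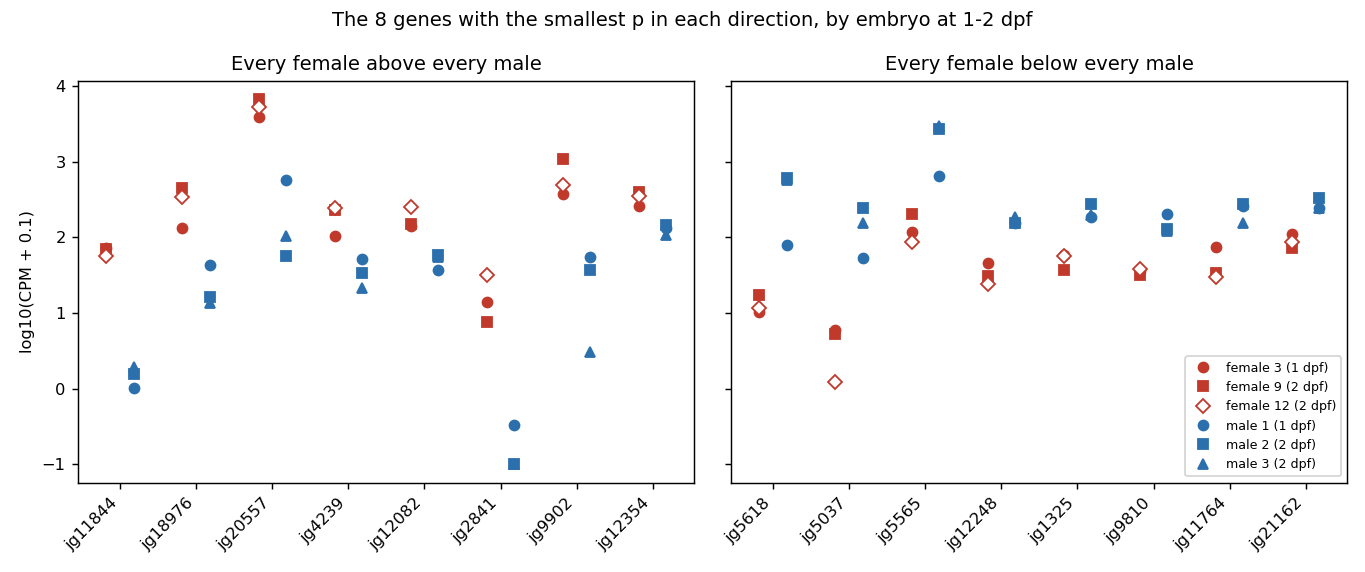
Level of the 8 genes with the smallest edgeR p in each direction among genes whose sexes did not overlap, as log10(CPM + 0.1) by embryo, with females left of males within each gene. In the left panel (8 genes, jg11844 to jg12354) all females lie above all males, and in the right panel (8 genes, jg5618 to jg21162) all females lie below. For jg11844 the level is 57.2 to 71.6 CPM in females and 0.930 to 1.83 CPM in males.

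The lower group held genes that males expressed several-fold above females. jg5618 had 39, 63 and 52 reads in females, against 345, 2468 and 2537 reads in males. The females were alike, while the male of 1 dpf was well below both males of 2 dpf. The mean of jg5618 was 13.1 ± 3.69 CPM in females and 422 ± 296 CPM in males (SD, n = 3 each), a log2 fold change of -4.98 (SE 0.79). jg5037, annotated by the study as serine/arginine repetitive matrix protein 1-like, had 22, 19 and 5 reads in females, against 231, 987 and 678 reads in males (log2 fold change -5.19, SE 0.83). jg5565 had 437, 752 and 391 reads in females, against 2820, 11062 and 13171 reads in males (log2 fold change -3.94, SE 0.65). In each of these genes the lowest male was the embryo of 1 dpf.

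The males differed less among themselves in the other 5 genes. jg12248 had 171, 112 and 108 reads in females, against 662, 635 and 804 reads in males (33.5 ± 10.8 CPM in females and 164 ± 16.9 CPM in males, SD, n = 3 each). jg1325 had 221, 136 and 251 reads in females, against 810, 1125 and 858 reads in males. jg9810, with a number in Z(diff), had 135, 114 and 171 reads in females, against 870, 526 and 536 reads in males. Each of these genes lay about as low in female replicate 12 as in the other females. The log2 fold changes were -2.28 (SE 0.38) for jg12248, -2.09 (SE 0.36) for jg1325 and -2.08 (SE 0.37) for jg9810. For jg11764 the value was -2.32 (SE 0.47) and for jg21162 -1.58 (SE 0.32).

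All 8 genes lower in females passed DESeq2, and 0 passed edgeR, where their adjusted p ran between 0.510 and 0.740. Their 120 values under the alternatives kept the direction, with adjusted p between 6.07e-07 and 1.00. Here too the choice of genes with separate sexes left little room for a change of direction. A further gene, jg11420, had 0 reads in all 3 females and 44, 110 and 38 reads in males, at least 18.5-fold lower in females. No other gene had 0 reads in every female and at least 10 in every male.

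The comparison was repeated without female replicate 12. With 2 females against 3 males, edgeR called 0 of 8868 genes (0%), with a smallest adjusted p of 0.116 and 589 genes at an unadjusted p under 0.05 (6.64%). DESeq2 called 74 of 9297 genes (0.796%), 31 higher in females (0.333%) and 43 lower (0.463%). The biological coefficient of variation was 0.836 with the library and 0.681 without it. Both females were above every male in 1055 genes (11.9%) and below every male in 1093 (12.3%), for 2 against 3 embryos. With the library left out, the 2 directions were nearly level.

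A library at 0 must lower the mean of its sex. The median log2 fold change of the 2242 tested genes with 0 reads in female replicate 12 was -1.03 with it and -0.44 without it. Of these 2242 genes, 18.2% had every female below every male. Over the 5847 genes with a read in it, the median was 0.097 with it and 0.10 without it, and 7.22% had every female below and 9.03% every female above. Of these 5847 genes, 3317 also had a lower log2 fold change with the library.

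**Figure D3:**
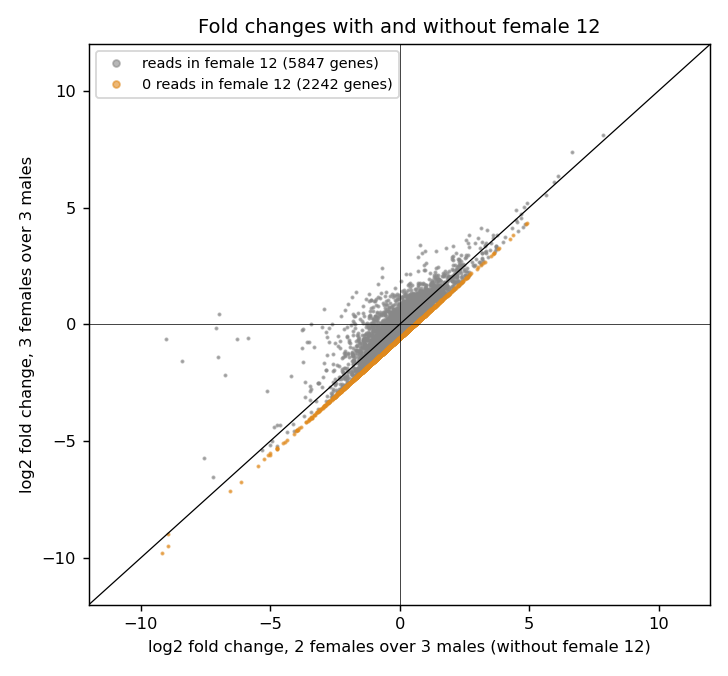
Log2 fold change of females over males from all 6 embryos (vertical axis) against that without female replicate 12 (horizontal axis), 1 point per gene. The 2242 genes with 0 reads in female replicate 12 (orange) lie below the diagonal by construction, and the 5847 genes with reads in it (grey) lie on both sides.

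Some genes were high in both other females and absent from female replicate 12. jg12920 had 1458 and 1715 reads in female replicates 3 and 9 and 1 read in female replicate 12, against 36, 90 and 74 reads in males. Without that library its log2 fold change was 4.78 (SE 0.50), with an adjusted p of 0.116 with edgeR and 5.63e-15 with DESeq2. With it, the values were 4.19 (SE 1.63), 0.782 with edgeR and 0.213 with DESeq2. jg13080 had 81 and 240 reads in female replicates 3 and 9 and 2 in female replicate 12, against 3, 1 and 2 reads in males. jg4232 had 119 and 143 reads in these females and 0 in female replicate 12, against 0 reads in all males, at least 48.3-fold higher in the 2 females. In jg13080 and jg4232 female replicate 12 was within the range of the males, and in jg12920 it was below every male.

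In the other direction female replicate 12 differed from its sex by having reads. jg43 had 0 reads in female replicates 3 and 9 and 134 reads in female replicate 12, against 40, 103 and 62 reads in males. Without that library jg43 was at least 19.7-fold lower in females. jg21408 had 0 and 0 reads in these females and 45 reads in female replicate 12, against 15, 54 and 65 reads in males. jg10661 had 63 and 82 reads in these females and 270 in female replicate 12, against 422, 359 and 368 reads in males. By contrast, jg4160 was low in every female, with 119, 84 and 9 reads, against 968, 673 and 789 reads in males (log2 fold change -2.78, SE 0.41, without the library and -3.32, SE 0.83, with it).

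Genes with 0 reads throughout 1 sex and at least 10 reads in each embryo of the other were also listed without female replicate 12. Leaving out an embryo removes a condition, so such genes can only become more numerous. Of the 19421 genes counted, 13 were such genes with reads in females and 5 with reads in males, against 1 and 1 with all 6 embryos. Beside jg4232 and jg3805, the genes with the highest level in females were jg21891, jg14984 and jg14538, at least 13.8-fold, 12.4-fold and 9.33-fold higher than the floor of the males. Beside jg11420, jg43 and jg21408, the genes with reads in males were jg3148 and jg21.

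Embryos of 1 dpf resembled each other across the sexes. The 1 dpf pair, female replicate 3 and male replicate 1, had a correlation of log2 CPM of 0.852 over genes, second to male replicates 2 and 3 of 2 dpf at 0.871. Female replicate 12 correlated at 0.672 and 0.754 with female replicates 3 and 9 and at 0.614 to 0.631 with the males. These values are across genes, which are not replicates, and include the genes without reads in that library. Each sex holds 1 embryo of 1 dpf and 2 of 2 dpf, so that either day held both sexes.

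The embryos of 1 and 2 dpf were also set apart by day, with 1 embryo per sex at 1 dpf and 2 at 2 dpf. Over all 8089 genes the median absolute log2 difference between the sexes was 0.57 at 1 dpf and 1.11 at 2 dpf. It was 2.24 at 1 dpf and 4.69 at 2 dpf in the 23 higher genes called by DESeq2, and 1.78 at 1 dpf and 4.61 at 2 dpf in the 44 lower genes, which were chosen on these same embryos. Female replicate 12, of 2 dpf, had 0 reads in 2242 of the 8089 genes and in 18 of the 44 lower genes. Its part in the values of 2 dpf was not tested, and the 1 pair of 1 dpf gives no spread. All 23 higher genes differed by more than 2-fold at 2 dpf in the called direction and 18 at 1 dpf, and of the 44 lower genes all did at 2 dpf and 32 at 1 dpf. In the 2 dpf embryos alone (2 females and 2 males), edgeR called 19 genes, 15 higher in females and 4 lower. The male of 1 dpf reached into the female range in 7 of the 15, and 7 of the 15 still separated all 6 embryos.

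Examples of these 19 genes were chosen after their values were seen. jg17415 had 3301, 4683 and 5780 reads in females, against 3634, 12 and 29 reads in males. jg3617 had 1385, 2306 and 1676 reads in females, against 1844, 0 and 0 reads in males. Only the males of 2 dpf were low in these genes, and at 4 dpf jg17415 had at most 43 reads in any embryo of either sex. jg22016, a Tudor domain gene, had 1281, 2327 and 1326 reads in females, against 1996, 41 and 31 reads in males. A different pattern was seen in jg7795, with 14, 1604 and 1216 reads in females, against 9, 12 and 25 reads in males, and in jg10020, with 1, 924 and 828 reads in females, against 16, 14 and 29 reads in males. In these genes the females of 2 dpf were high, and both embryos of 1 dpf were low. jg2828, jg8840 and jg22243 were low in the males of 2 dpf (18 to 131 reads), but had 493 to 5190 reads in the 6 embryos of 4 dpf.

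A stage index was computed to place the embryos between 1 and 4 dpf. It is the mean log2 CPM of 335 genes higher at 4 dpf minus that of 157 genes lower at 4 dpf, with the genes chosen from both 1 dpf embryos against the 6 embryos of 4 dpf. The index was -4.23 in the female and -4.07 in the male of 1 dpf, values used to choose the genes. At 2 dpf, which the choice did not use, it was -3.07 and -3.69 in female replicates 9 and 12, against -2.75 and -2.44 in male replicates 2 and 3. With medians in place of means it was -3.41 and -4.01 in the females, against -3.39 and -2.94 in the males, so that female replicate 9 and male replicate 2 were nearly equal. Zeros in female replicate 12 enter its values, and 2 against 2 embryos allow no p under 0.05. At 4 dpf it was between 2.34 and 2.88. Of the 831 genes with every female below, 4.93% were among the genes higher at 4 dpf, against 2.87% of all genes tested. Of the 528 genes with every female above, 3.03% were among the genes lower at 4 dpf, against 1.92% of all. The part of the stage index and of female replicate 12 in the sex differences was not tested.

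**Figure D4:**
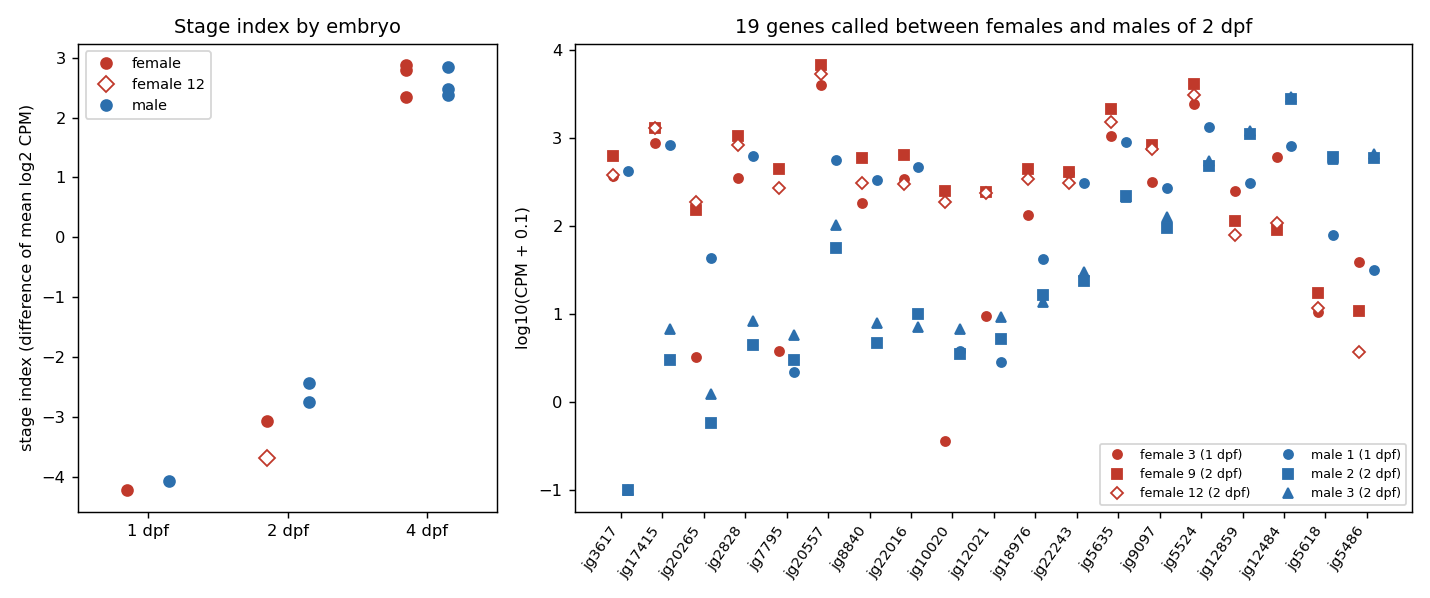
Left, stage index (mean log2 CPM of genes higher at 4 dpf minus that of genes lower at 4 dpf) of the 12 embryos by day and sex. Right, level as log10(CPM + 0.1) of the 19 genes called among the 2 dpf embryos, females before males. At 2 dpf the index is -3.07 and -3.69 in females and -2.75 and -2.44 in males, and in 8 of the 19 genes male replicate 1 reaches the range of the females.

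The embryos of 4 dpf allowed the genes of 1–2 dpf to be read again in other animals. At 4 dpf edgeR called 0 of 8979 genes (0%), with 317 at an unadjusted p under 0.05 (3.53%), and called 3 genes without female replicate 7 and 2 without male replicate 2. DESeq2 called 30 of 10152 (0.296%), 18 higher in females (0.177%) and 12 lower (0.118%). Every female was above every male in 460 genes (5.12%) and below in 519 (5.78%). As at 1–2 dpf, random order would separate a share of 0.1 of genes over both directions together. jg11844 had 161, 32 and 40 reads in females, against 0, 3 and 0 reads in males, with a log2 fold change of 6.20 (SE 1.48). jg20557 had 8363, 1960 and 1482 reads in females, against 150, 80 and 46 reads in males, with a log2 fold change of 5.53 (SE 0.74). Among the 8 genes higher in females at 1–2 dpf, these 2 passed DESeq2 at 4 dpf, with an adjusted p of 0.00376 for jg11844 and 1.06e-18 for jg20557, and 3 had sexes that did not overlap. Both genes also had more reads in the adult female than in the adult male, 214 against 0 reads of jg11844 and 2836 against 14 reads of jg20557, with 1 adult per sex and no test.

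**Figure D5:**
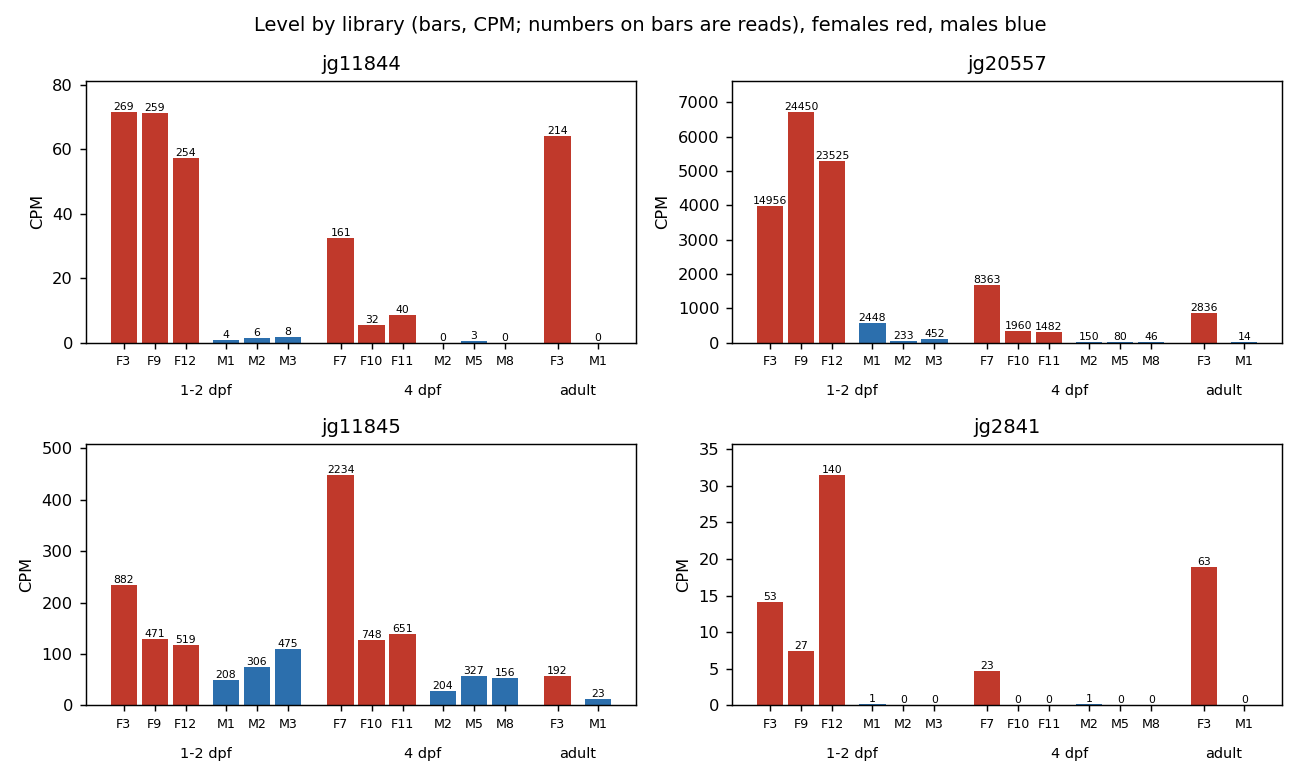
Level in CPM (vertical axis) of jg11844, jg20557, jg11845 and jg2841 in each library, females left of males at 1–2 dpf, 4 dpf and in adults, with the read number on each bar; adult values are CPM without TMM scaling. jg11844 and jg20557 are higher in every female than in every male of the same stage, and jg2841 had reads in 1 of the 3 females of 4 dpf.

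The sex difference at 1–2 dpf was not seen at 4 dpf in most of the genes lower in females. jg5037 had 24713, 31319 and 22456 reads in females of 4 dpf, against 48991, 26301 and 11669 reads in males, where the sexes overlapped. jg11420 had 3927, 2441 and 1915 reads in females of 4 dpf, against 1858, 3395 and 1101 reads in males. Of the 8 genes lower in females, 0 passed DESeq2 at 4 dpf, and 2 (jg5618 and jg9810) had sexes that did not overlap. The difference between the stages was itself tested. The sex by stage interaction passed DESeq2 in 5 of these 8 genes and in 1 of the 8 higher genes (jg18976). Both groups were chosen on the 1–2 dpf embryos that also enter this test, which favours a smaller difference at 4 dpf. Over all genes, edgeR called 0 of 9833 (0%), with 543 at an unadjusted p under 0.05 (5.52%), and 1 gene (jg12920) without female replicate 12. For jg5037 the interaction (1–2 dpf minus 4 dpf) was -5.19 on the log2 scale, and DESeq2 called 30 of 10189 genes (0.294%) in all.

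Of 7676 genes tested at both stages, 40 had every female above every male at both (0.521%) and 54 every female below (0.703%). The 40 genes were 7.86% of the 509 such genes at 1–2 dpf (6.63% of all) and 9.95% of the 402 at 4 dpf, where 5.24% of all genes had every female above. The 54 genes were 6.81% of 793 and 12.5% of 432, where 5.63% of all had every female below at 4 dpf. In 11 genes every female was above at 1–2 dpf and below at 4 dpf (0.143%), and in 26 genes the opposite was seen (0.339%). Across the genes the log2 fold changes of the stages had a correlation of 0.095.

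Besides jg11844 and jg20557, the higher genes with the smallest p at both stages were jg16507, jg11845 and jg15345. jg11845, the gene number next to jg11844, had 882, 471 and 519 reads in females of 1–2 dpf, against 208, 306 and 475 reads in males. The lowest female was close to the highest male, and the log2 fold change was 1.07 (SE 0.44). At 4 dpf it had 2234, 748 and 651 reads in females, against 204, 327 and 156 reads in males (log2 fold change 2.38, SE 0.54, adjusted p 0.00314 with DESeq2). jg16507 had 34, 130 and 40 reads in females of 1–2 dpf, against 14, 10 and 1 reads in males, and 29, 57 and 26 reads in females of 4 dpf, against 0 reads in all males. The lower genes were jg14790, jg9662, jg5235, jg14374 and jg8762. jg5235 had 181, 185 and 76 reads in females of 1–2 dpf, against 1140, 781 and 650 reads in males, and 819, 861 and 762 reads in females of 4 dpf, against 1379, 1058 and 812 reads in males. jg9662 had 1190, 1293 and 902 reads in females of 1–2 dpf, against 2747, 2230 and 3979 reads in males.

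With all 12 embryos in 1 comparison, every female was above every male in 12 genes (0.156%) and below in 17 (0.221%), and these genes were listed after their values were seen. The 12 genes were jg11844, jg4239, jg12021, jg16507, jg5230, jg11845, jg14744, jg13842, jg1773, jg15409, jg8515 and jg8059. Among them jg8059 differed little, with 116 ± 17.4 CPM in females of 1–2 dpf and 92.3 ± 5.23 CPM in males (SD, n = 3 each). Of the 17 lower genes, jg17864 had 35, 35 and 46 reads in females of 1–2 dpf, against 99, 78 and 80 reads in males, and 33, 32 and 44 reads in females of 4 dpf, against 87, 79 and 34 reads in males. No gene had reads in every library of 1 sex and in none of the other over all 14 libraries.

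The medians of sex-linked genes at 1–2 dpf, taken by gene number, were close to that of all genes. Z(diff) genes were taken as jg9743 to jg9949 and PAR genes as jg8968 to jg9331, between genes whose region the study gives. The study itself reports that Z(diff) genes as a whole were significantly lower in females at this stage. It set the regions by chromosome position and used DESeq2 fold changes. Gene set and fold changes differ here, so the values below do not repeat its comparison. Over 50 Z(diff) genes with a mean count above 100, 23 were higher and 27 lower in females, and the median log2 fold change was -0.049. The median was 0.085 over 90 PAR genes and 0.049 over the 3960 genes of that count. Without female replicate 12 the medians were -0.022, 0.17 and 0.090, in the same order. Leaving out each embryo, the Z(diff) median ran from -0.24 without female replicate 9 to 0.099 without male replicate 3. Every female was above every male in 7 of the 50 Z(diff) genes (14%) and below in 6 (12%), against 9.37% and 8.61% of all genes of that count. At an unadjusted p under 0.05, edgeR held 4 of the 50 Z(diff) genes as higher and 3 as lower, against 243 and 172 of the 3960 genes of that count.

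Single Z(diff) genes differed in both directions. Beside jg9902 and jg9810, jg9779 had 20, 671 and 608 reads in females, against 9, 8 and 0 reads in males, so that only the females of 2 dpf were high. jg9744 had 22, 74 and 236 reads in females, against 6, 9 and 13 reads in males. jg9807 had 681, 1188 and 805 reads in females, against 341, 456 and 542 reads in males (log2 fold change 1.15, SE 0.37). Of the lower genes, jg9826 had 175, 43 and 96 reads in females, against 682, 493 and 442 reads in males (log2 fold change -2.23, SE 0.56). jg9795 had 473, 375 and 129 reads in females, against 1021, 685 and 913 reads in males. These genes were taken from the 20 Z(diff) genes with separate sexes after their values were seen.

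Genes of the MSL complex were expressed in both sexes without a difference that passed a test. jg10843 (DHX9, called MLE in flies, the helicase of the complex) had 902, 518 and 572 reads in females, against 964, 899 and 837 reads in males (log2 fold change -0.30, SE 0.34). jg3349 (MOF, the acetyltransferase) had 50, 76 and 163 reads in females, against 133, 92 and 155 reads in males (log2 fold change -0.30, SE 0.62). The sexes overlapped in both genes. jg9702 (MSL1, a scaffold of the complex) had 76, 52 and 0 reads in females, against 70, 93 and 51 reads in males, and jg13090 (MSL2, a ubiquitin ligase) had 37, 34 and 0 reads in females, against 4, 39 and 48 reads in males. The zeros in both are female replicate 12, in which 2242 of the genes tested had no read. jg12255 (MSL3 or MRG15, a chromodomain protein) averaged 79.9 ± 31.1 CPM in females and 70.2 ± 6.21 CPM in males (SD, n = 3 each).

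Of these 5 genes, 1 had a higher and 4 a lower mean in females, with a median log2 fold change of -0.30 over the 5 genes and -0.14 over all genes tested. Without female replicate 12 the median of the 5 was 0.040 and that of all genes -0.020. In 0 of the 5 genes was the unadjusted p under 0.05 with edgeR, and DESeq2 called none of them. The same held for the other acetylation factors. jg3149 (CBP, an acetyltransferase and coactivator) had 64, 36 and 0 reads in females, against 365, 113 and 63 reads in males, jg16372 (GCN5, an acetyltransferase) averaged 90.0 ± 51.9 CPM in females and 83.0 ± 24.3 CPM in males, and jg8800 (SIRT1, a deacetylase) 139 ± 60.5 CPM in females and 120 ± 13.9 CPM in males (SD, n = 3 each). jg7034 (TIP60, an acetyltransferase) had 33, 8 and 0 reads in females, against 56, 8 and 34 reads in males. The genes used by the study as qPCR references overlapped between the sexes, with 256 ± 49.1 CPM of jg15373 in females and 198 ± 105 CPM in males, and 95.2 ± 32.5 CPM of jg3163 in females and 90.8 ± 30.7 CPM in males.

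The 5 genes with the highest mean CPM, not scaled for length, differed in how much they varied between embryos. jg17559 had 74914, 182079 and 222328 reads in females, against 55454, 189616 and 159948 reads in males. The embryos of 1 dpf were the lowest of each sex, and the sexes overlapped. jg22224 had 58523, 94531 and 71036 reads in females, against 55242, 3343 and 163 reads in males. jg22222 is not among the 5 and is given here as a gene that the study names among its intron retention hits. The study judged these hits, which also include jg5037, to be false positives on manual inspection. It had 11842, 8008 and 3432 reads in females, against 12677, 578 and 2 reads in males. In both genes the male of 1 dpf was near the females and the males of 2 dpf were low. At 4 dpf jg22224 had at most 94 reads in any embryo. jg14428 had 6708, 1501 and 2559 reads in females, against 6265, 194426 and 79900 reads in males, with both males of 2 dpf far above the other 4 embryos. jg21071 had 56320, 29033 and 23494 reads in females, against 64619, 72021 and 89907 reads in males (log2 fold change -0.90, SE 0.44), and jg9664 averaged 8239 ± 1186 CPM in females and 9869.5 ± 1989 CPM in males (SD, n = 3 each).

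Strongly higher genes were unevenly placed along the gene numbers, a comparison made after the values were seen. The gene table holds 21 long runs of neighbouring gene numbers and shorter pieces between them. Every female was above every male with a log2 fold change above 3 in 13 of 727 tested genes outside the long runs (1.79%), against 21 of 7358 inside (0.285%). In the opposite direction the shares were 1.38% outside (10 genes) and 1.18% inside (87 genes). jg11844 and jg11845 form a piece of 2 genes. Their chromosome is not given in the sources used here.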

How the data were processed

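RNA of single embryos and of adults was amplified and sequenced by the authors, and the RNA of embryos was below the detection limit before amplification. The authors deposited raw counts per gene from the Cogent pipeline, counted over all reads, with no normalization, and with reads of 1 unique molecular identifier kept apart. Columns were assigned to samples by barcode. Reads of overlapping genes cannot be told apart in these counts, since the strand used in counting is not given in the sources used here. Reads of near-identical copies cannot be told apart either, whatever the strand.

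Sexes were tested with edgeR 4.0.16 in R 4.3.3 (filterByExpr, TMM, quasi-likelihood F test) and Benjamini-Hochberg adjustment with a threshold of 0.05. DESeq2 1.42.0 and limma 3.58.1 (voom with quality weights) were alternatives, and figures were drawn with matplotlib 3.10.9 in Python 3.11.15. Females were compared with males over the 6 embryos without a covariate. Standard errors were derived from the log2 fold change and its F statistic. CPM were scaled by TMM over the 12 embryos, log2 CPM used a prior count of 2, and the floor was 3 reads per library. Totals were 3591905 to 4820308 reads, and the floor was 0.676 to 0.825 CPM after scaling.

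Named genes were the 8 per direction with the smallest p among genes whose sexes did not overlap, and the 5 per direction without female replicate 12. Further named genes were those with 0 reads in 1 sex and at least 10 in each embryo of the other, those separated at both stages (5 per direction), the 5 most abundant genes and the genes that the study gives by number. Members, lists and rules were chosen with earlier results of these data known. Scripts were tested on simulated data. Other alternatives were RLE and upper quartile factors, other filters, day as a covariate, 2 dpf only, 1 model of 12 embryos and each embryo left out. Of 19421 identifiers, 0 were found in the RefSeq table.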

Additional observations from a re-analysis of the deposited data

Results flagged for a closer look

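jg12920 differed between the stages by a test of the difference itself. Without female replicate 12, its sex by stage interaction (1–2 dpf minus 4 dpf) was 6.63 on the log2 scale (SE 0.81, adjusted p 0.0241 with edgeR), the 1 gene called in that fit. With all 12 embryos the interaction was 6.03, and the adjusted p was 0.837 with edgeR and 0.0965 with DESeq2. At 4 dpf jg12920 had 121, 165 and 37 reads in females, against 785, 216 and 205 reads in males, a log2 fold change of -1.84, and every female was below every male.

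In 11 genes every female was above every male at 1–2 dpf and below at 4 dpf (0.143% of 7676), and in 26 genes the order was the opposite (0.339%). The sex by stage interaction of edgeR called 0 of the 11 and 0 of the 26 after adjustment and held 9 and 15 at an unadjusted p under 0.05, and that of DESeq2 called 1 and 4. These genes were chosen for opposite directions on the same embryos. jg21408 had a log2 fold change of 1.34 at 4 dpf, where every female was above every male, and without female replicate 12 every female of 1–2 dpf was below.

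The adults, with 1 library per sex, carried reads of some of these genes in 1 sex. The adult female had 214 reads of jg11844 and 63 reads of jg2841, against 0 reads of both in the adult male. In the opposite direction, the adult female had 0 reads of jg3562, jg12751 and jg14884, against 11, 47 and 29 in the male, and these genes were also lower in every female of both stages. The adult genes above kept the direction of the embryos, but other named genes did not. jg9902 and jg12082 were higher in females of 1–2 dpf. Adult reads of jg9902 numbered 138 (female) and 3155 (male), and those of jg12082 numbered 0 and 62. jg5235 was lower in females of both stages, yet its adult reads numbered 821 (female) and 55 (male). With 1 adult per sex, neither pattern was tested. Groups of 3 embryos were too small for a formal screen for single outlying samples, although female replicate 12 stood apart in the number of genes detected.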

How the results depend on the processing

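The number of genes called between the sexes at 1–2 dpf depended on the tool and on the embryos. Against 0 with edgeR, DESeq2 called 67 genes, edgeR without a filter on low counts 12, edgeR on the 2 dpf embryos alone 19, and the contrast from 1 model of 12 embryos 4. RLE and upper quartile factors, a stricter filter, day as a covariate and limma with quality weights gave 0, and leaving out each embryo gave 0 to 12. Without female replicate 12, DESeq2 called 74 and edgeR without a filter 61, both chosen after seeing the data, while the other alternatives gave 0. At 4 dpf DESeq2 called 30 genes, and leaving out each embryo gave 0 to 3. For the interaction DESeq2 called 30 genes, and edgeR called 1 without female replicate 12. With each embryo left out, genes with every female above numbered 698 to 1352 and genes with every female below 1093 to 2365, where fewer embryos separate more easily. The Z(diff) median was 0.26 over genes with a mean count above 500, and -0.24 to 0.099 with each embryo left out. The cause was not tested.

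Differences of female minus male library means changed sign with single embryos left out, an alternative chosen after seeing the data. They ran from -377218 to 188299 for total counts, from -2182.5 to 31.5 for genes with a read, and from -2.65 to 0.952 percentage points for the reads on the 10 most abundant genes. Of 1362 log2 fold changes of 94 named genes under the alternatives, 1347 kept the direction. Many of these genes were chosen for separate sexes in the same embryos, which favours an unchanged direction. Day as a covariate turned jg13090 to 0.11, and the 2 dpf embryos alone turned jg12255 to -0.22 and jg16372 to -0.38. With each embryo left out, jg17559 ran from -0.011 to 0.74, jg9702 from -1.23 to 0.040, jg13090 from -0.67 to 0.43, jg12255 from -0.046 to 0.48, jg16372 from -0.40 to 0.46, jg8800 from -0.053 to 0.54 and jg3163 from -0.16 to 0.35. No paired analysis was possible, because the mothers are not given and no label links a female to a male.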
